A study of Mus musculus with 8 samples.

Results

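Clusterin (*Clu*) and 7 genes of the complement system and its regulators, *C3*, *C4b*, *C1ra*, *C1s1*, *Serping1*, *Cd55* and *Cd59a*, were examined in RNA-Seq data of mouse dental pulp. The genes were chosen by symbol, and *Clu* was included because it was higher in the mutants, so that its values are a description without a test. Of the 8 genes, 6 were among the 12148 genes analysed. *C3* and *C4b* were not analysed here.

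Complement is a cascade of plasma and tissue proteins that marks surfaces for removal and opens pores in membranes. C1q binds a target and activates the proteases C1r and C1s, which cleave C4 and C2, and the resulting enzymes cleave C3 and then C5. Host cells hold this cascade in check with secreted inhibitors, among them the C1 inhibitor (*Serping1*) and clusterin, and with surface proteins, among them CD55, which dissociates the enzymes that cleave C3 and C5, and CD59, which blocks the membrane pore. Clusterin is also an extracellular chaperone and binds unfolded proteins. In soft tissues much of the local C1q is made by macrophages, and fibroblasts are a known source of C1r, C1s and the C1 inhibitor.

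The pulp came from mandibular first molars (M1s) of C57BL/6J mice at postnatal day 7 (P7), freed of mineralized tissue and enamel organ, with the left and right M1s combined. Osterix-Cre controls gave 4 libraries and Osterix-Cre:Tgfbr2f/f mice (*Tgfbr2cko*) gave 4. In both genotypes the Osterix promoter drives Cre recombinase in odontoblasts and other cells of the dental mesenchyme, and in the mutants Cre removes the floxed *Tgfbr2*, the TGFβ type II receptor. The paper reports no Cre activity in the nerve fibres of the pulp. Whether blood, vessel and epithelial cells kept the receptor gene was not tested here. Libraries are named by the number at the end of their title, 49 to 52 being the controls and 53 to 56 the mutants. Control titles also carry the numbers 4, 4, 2 and 5, and mutant titles 3, 2, 2 and 3, which are not explained. Nothing says that the libraries of a genotype came from separate animals, so the p-values measure the spread between these libraries, which may be technical in part.

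Between 8682872 and 13539670 reads per library fell on the genes analysed. Values are log2 CPM, in which CPM is the count scaled to a library total of 1000000 reads, and differences are *Tgfbr2cko* minus Osterix-Cre on that scale. The targeted gene, *Tgfbr2*, averaged 7.48 ± 0.22 over the 4 controls and 7.20 ± 0.28 over the 4 mutants (± SD), a difference of -0.29 with a limma-trend adjusted p of 0.79. Without library 56 it was -0.42 and without library 49 -0.39, with unadjusted limma-trend p of 0.0136 and 0.0411, and without each of the other 6 it was -0.27 to -0.22, with p of 0.18 to 0.264. Libraries 55, at 7.16, and 56, at 7.61, lay inside the control range of 7.16 to 7.64, so this gene does not by itself place each library in its genotype. Library 56 also stood apart in enamel matrix transcripts: *Amelx* and *Ambn* took 18.5% of its reads, against 0.326% to 2.74% in the other 7. CPM is a share of the library total, so such reads lower the CPM of every other gene in that library. The main values were not adjusted for this. Genes of pulp fibroblasts (*Col1a1*) and odontoblasts (*Dspp*) were present in all 8 libraries, as the tissue label says. In bulk tissue, fewer cells of a type and less RNA per cell cannot be told apart.

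The *Clu* gene (ENSMUSG00000022037.14; GRCm38 chromosome 14, 65968483 to 65981547, plus strand) encodes clusterin. Its log2 values were 10.50, 10.36, 10.36 and 10.27 in controls 49 to 52. In mutants 53 to 56 they were 11.06, 10.95, 11.54 and 13.20. The controls were tightly grouped, all mutants lay above them, and 1 mutant library, 56, lay far above the others. The means were 10.37 ± 0.09 and 11.69 ± 1.04 (SD, n = 4 each), a difference of 1.32, or 2.49-fold on the geometric mean. Relative to the control mean, the mutants were 1.62-, 1.49-, 2.24- and 7.12-fold. Without library 56 the difference was 0.81. Of all 12148 genes, 2.13% had every mutant value above every control value, a share given only for scale because *Clu* was chosen for this contrast.

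**Figure D1:**
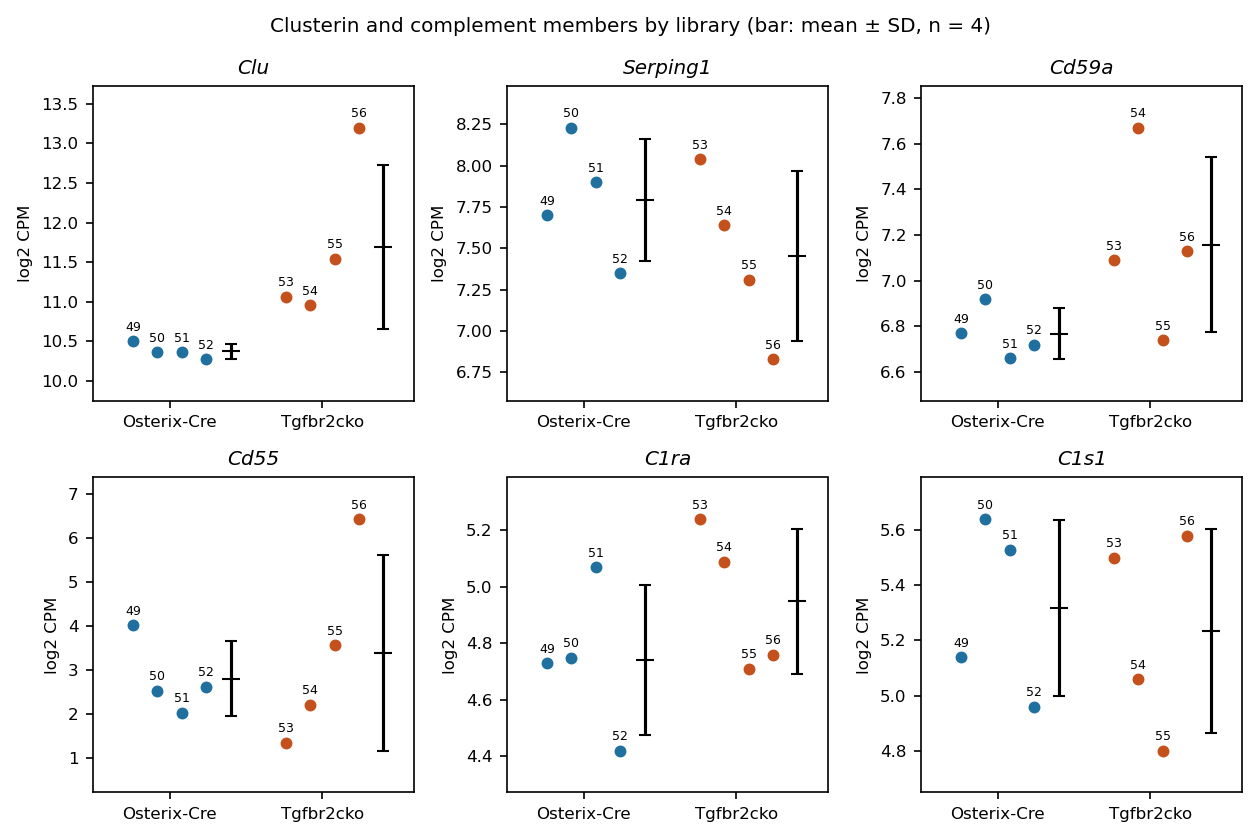
Log2 CPM of the 6 members in each library (points, labelled with the library number), with the mean ± SD of each genotype (n = 4) beside them; each panel has its own axis. *Clu* is the panel in which the genotypes do not overlap, and library 56 lies highest for *Clu* and *Cd55* and lowest for *Serping1*.

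*Clu* was abundant in the pulp of both genotypes. Per kilobase of merged exon length it ranked between 80 and 91 of 12144 genes in the controls and between 5 and 45 in the mutants. It took 0.124% to 0.145% of the reads of the controls and 0.198% to 0.944% of those of the mutants. At 12479 reads or more in every library, counting error was small beside the spread between libraries.

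The rise of *Clu* was set beside the genes of other cell types that a pulp sample can hold. The 7 dental epithelium genes analysed of 9 listed (among them keratins, *Cdh1*, *Epcam* and *Trp63*; *Krt15* and *Shh* were not analysed here) summed to 341 to 533 CPM in the controls. In mutants 53 to 56 they summed to 374, 568, 1400 and 4460 CPM. Of the 7, 6 had a difference above 0 and 3 were altered upward, among them *Krt17* and *Cdh1*, where 2.12% of all genes were, and the median difference was 1.20. The mutants with the most epithelial RNA, 55 and 56, were also those with the most *Clu*. Library 53 had an epithelial sum within the control range and a *Clu* value of 11.06, above the highest control at 10.50. The 7 enamel matrix and ameloblast genes summed to 3970 to 23300 CPM in the controls and 4120 to 193000 CPM in the mutants, but their differences were split in sign. *Amelx*, *Ambn* and *Enam*, the structural proteins of the matrix, differed by 1.39, 1.46 and 1.63 and were not altered. The other 4 had differences below 0. *Amtn*, *Odam* and *Mmp20* differed by -0.89, -0.76 and -0.38 and were not altered (limma-trend p of 0.416, 0.544 and 0.299). *Amtn* and *Odam* were highest in libraries 49, 55 and 56, as was *Amelx*. *Klk4*, a protease of enamel maturation, fell by 2.71 on the log2 scale with every mutant below every control (limma-trend adjusted p = 0.000136). Control 49, with the highest enamel sum of the controls, had 1.09 times the control mean of *Clu*. With the mean of *Amelx*, *Ambn* and *Enam* alone added to the model, the *Clu* difference was 0.85. No covariate of the epithelial genes was fitted, and the part of epithelial cells in the *Clu* values was not tested otherwise.

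**Figure D2:**
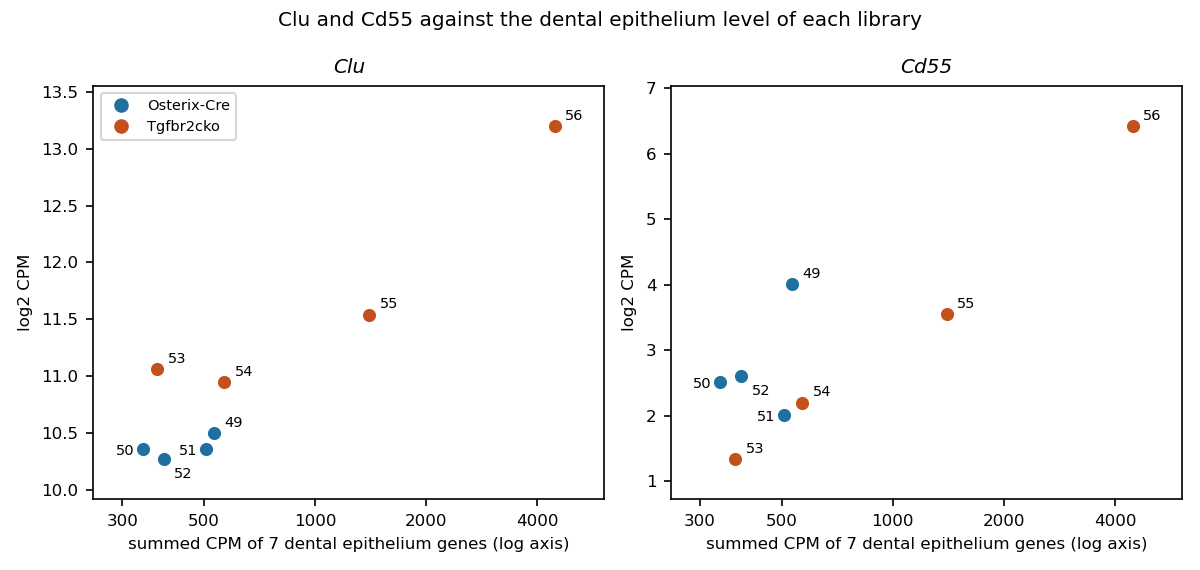
Log2 CPM of *Clu* (left) and *Cd55* (right) against the summed CPM of 7 dental epithelium genes (log axis), 1 point per library, coloured by genotype and labelled with the library number. At epithelial sums near those of the controls, mutants 53 and 54 lie above all controls for *Clu* and below most controls for *Cd55*; library 56 is at the upper right of both plots.

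The genes whose profile over the 8 libraries lay nearest to that of *Clu* were found by the root mean square difference of log2 values, each gene centred on its own mean, among the 10311 genes that averaged at least 3 on the log2 scale. Of the 5 nearest, 4 were *Dsp*, *Tmem108*, *Itgb4* and *Entpd3*, at distances of 0.202, 0.230, 0.278 and 0.312, where *Clu* itself deviated from its mean by 0.918. *Dsp* encodes desmoplakin of the desmosome and *Itgb4* the integrin β4 of the hemidesmosome, both structures of epithelial cells. Control values of *Dsp* were 4.51, 4.18, 4.34 and 4.21, and mutant values were 4.43, 4.86, 5.35 and 6.84. It differed from *Clu* in library 53, which lay within the control range for *Dsp* and above it for *Clu*. *Tmem108* had control values of 3.22, 3.68, 3.43 and 2.98 and mutant values of 4.22, 3.77, 4.51 and 5.82, with no overlap, as for *Clu*. These genes were picked for their likeness to *Clu*, so no test is given.

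**Figure D3:**
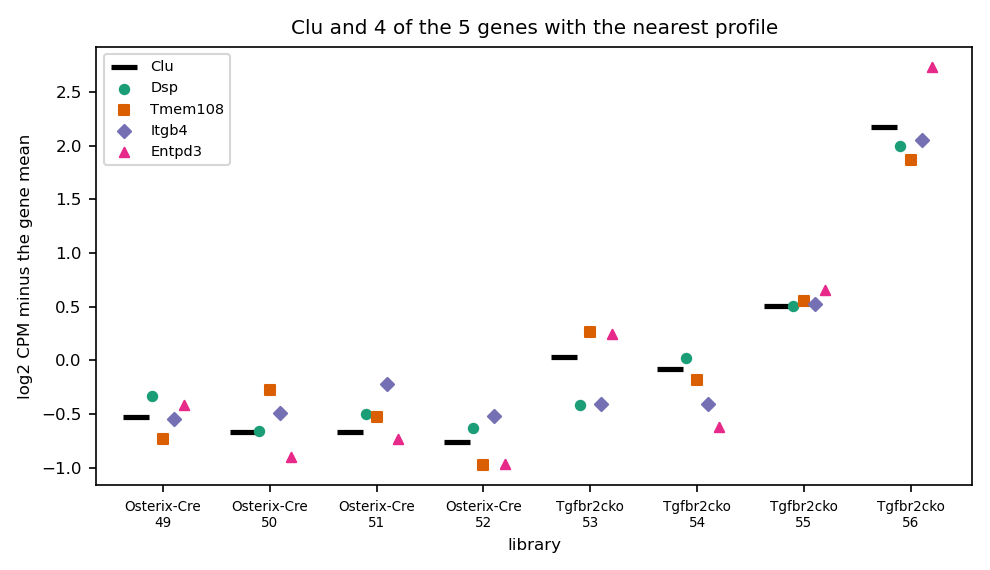
Log2 CPM minus the gene's own mean in each library, for *Clu* (black bars) and 4 of the 5 genes with the nearest profile (coloured markers, offset sideways within each library). The markers are closest together in library 55, and in library 56 they spread between *Tmem108*, the lowest, and *Entpd3*, the highest.

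The other 5 members analysed were tested by limma-trend over all 12148 genes. A gene was called altered when it changed 1.5-fold or more with a p, before adjustment, under 0.05. Limma-trend called 0 of the 5 altered, where 5.77% of all genes were altered, 2.12% upward and 3.65% downward. An unadjusted p under 0.05 was found for 0 of the 5 and for 8.38% of all genes, and an adjusted p under 0.05 for 0 of the 5 and for 0.947% of all genes, 0.247% higher and 0.7% lower. In the same 5 genes the genotypes overlapped. Of the 5, 3 had a difference above 0, as did 48.8% of all genes, and their median difference was 0.21, where that of all genes was -0.01. With voom weights and with library weights 0 of the 5 were altered as well.

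*Cd59a* (ENSMUSG00000032679.12; chromosome 2, 104095801 to 104115354) encodes the anchored surface protein that stops assembly of the membrane pore. The controls had log2 values of 6.77, 6.92, 6.66 and 6.72, and the mutants had 7.09, 7.67, 6.74 and 7.13. Mutants 53, 54 and 56 were above all controls, and mutant 55 was level with them. The difference was 0.39 (95% interval -0.0013 to 0.78), where limma-trend gave a p of 0.0506, or 0.597 after adjustment. The exact permutation test over the 70 arrangements, which cannot go below 0.0286, gave 0.0857 (two-sided). Its p fell under 0.05 in 5 of 17 alternatives, with a lowest of 0.0126 without library 55, but the change was under 1.5-fold in each. Without library 54 the difference was 0.22, with a limma-trend p of 0.19. Its paralog *Cd59b*, on the same chromosome (104069849 to 104091187), was counted with 27 to 43 reads in each library, and its difference of -0.23 (95% interval -0.81 to 0.35) had a limma-trend adjusted p of 0.974.

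*Cd55* (ENSMUSG00000026399.12; chromosome 1, 130439027 to 130462744, minus strand) encodes decay-accelerating factor. In controls 49 to 52 the log2 values were 4.01, 2.52, 2.02 and 2.61, and in mutants 53 to 56 they were 1.34, 2.20, 3.55 and 6.42, from 22 to 1157 reads. Library 56 had 12.3 times the control mean, and library 53, with the lowest value of all, had 0.366 times. The genotypes overlapped widely, and the difference of 0.59 (95% interval -1.21 to 2.38) had a limma-trend adjusted p of 0.994. Its direction rested on library 56, without which it was -0.43 with a limma-trend p of 0.421. The sum of the enamel matrix genes was 23300 CPM in library 49, 29500 in 55, 193000 in 56 and at most 7050 in the other 5. These 3 libraries, from both genotypes, were the 3 with the most *Cd55*, though library 49 had more *Cd55* than 55, and the order of the other 5 did not follow the enamel sum. With *Amelx*, *Ambn* and *Enam* in the model the *Cd55* difference was -0.53, with a limma-trend p of 0.16; the part of enamel organ cells in the *Cd55* values was not tested otherwise.

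*Serping1* (ENSMUSG00000023224.12; chromosome 2, 84765387 to 84775444) encodes the C1 inhibitor, the serpin that inactivates C1r and C1s. Controls 49 to 52 had 7.70, 8.23, 7.90 and 7.35 on the log2 scale, and mutants 53 to 56 had 8.04, 7.64, 7.31 and 6.83. Control 52 and mutant 55 were nearly level, and mutant 53 exceeded all controls but 50. The difference of -0.34 (95% interval -0.87 to 0.19) had a limma-trend adjusted p of 0.869, and it was -0.13 without library 56. Without library 53 it was -0.54, under 1.5-fold, with an unadjusted limma-trend p of 0.034, the only 1 of 17 alternatives under 0.05. With *Amelx*, *Ambn* and *Enam* in the model it was -0.096, with a limma-trend p of 0.619. Library 56, with the highest *Clu* of the 8, had the lowest *Serping1*, in values not adjusted for its large share of enamel matrix reads.

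The proteases of the C1 complex are encoded by *C1ra* (ENSMUSG00000055172.10; chromosome 6, 124512405 to 124523443) and *C1s1* (ENSMUSG00000038521.17; chromosome 6, 124530345 to 124542359), neighbours on opposite strands. For *C1ra* the control values were 4.73, 4.75, 5.07 and 4.42 and the mutant values 5.24, 5.09, 4.71 and 4.76 on the log2 scale, a difference of 0.21 (95% interval -0.20 to 0.62; limma-trend adjusted p = 0.942). For *C1s1* the control values were 5.14, 5.64, 5.53 and 4.96 and the mutant values 5.50, 5.06, 4.80 and 5.58. Its difference was -0.09 (95% interval -0.55 to 0.37; limma-trend adjusted p = 0.998). Both intervals leave out a 2-fold change in either direction. Some of these reads are uncertain in origin. Of the 50-base stretches of the *C1ra* transcripts, 48.0% also occur in those of the tandem copy *C1rb*, and 21.8% of those of *C1s1* occur in *C1s2*. For *Cd55* and *Cd59a* the shares in common with *Cd55b* and *Cd59b* were 8.0% and 3.87%. *C1rb* had 0 to 29 reads per library, against 218 to 418 for *C1ra*. Exons of the antisense gene *Gm16567* overlap 18.4% of the exon length of *C1s1*, and without strand in the counting, which is not given in the sources used here, their reads cannot be told apart.

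Levels of different genes were compared as CPM per kilobase of merged exon length. In the controls *Clu* stood at 386 ± 25.3, *Serping1* at 97.7 ± 24.6 and *Cd59a* at 60.2 ± 4.66 (SD, n = 4 each). *C1s1* followed at 13.0 ± 2.83, *C1ra* at 9.06 ± 1.67 and *Cd55* at 1.64 ± 1.13. The ranges of *C1s1* and *C1ra* overlapped in the controls, 9.91 to 15.9 against 7.15 to 11.2, and the other neighbours in that order did not overlap. In the mutants *Serping1*, at 49 to 113, and *Cd59a*, at 59.0 to 112, overlapped. *Cd55* was the lowest member in every library except 56, where at 17.6 CPM per kilobase it exceeded *C1s1* at 15.2 and *C1ra* at 9.07.

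Promoter sequences from RefSeq (GRCm38.p6; 250 bases before to 50 bases after the start that RefSeq gives, which for *C1ra* lies downstream of the GENCODE start given with the gene) were found for 4 of the 6 members analysed, *C1ra*, *C1s1*, *Cd55* and *Cd59a*. They were searched on both strands for the letters of an AP-1 motif (TGANTCA), a SMAD motif (CAGAC), a STAT motif (TTCNNNGAA) and an IRF motif (GAAA, any 2 bases, GAAA). Of 32851 promoters of the same length, 7.81% held the AP-1 letters, 49.6% the SMAD letters, 8.30% the STAT letters and 3.44% the IRF letters. The SMAD letters were searched because SMAD proteins carry the TGFβ signal to DNA. Shown are *Cd55*, the member with the widest spread, *Cd59a*, the member nearest the threshold, *C1ra*, a protease with matches to 2 of the motifs, and *Cfp*, the complement gene with the smallest p (described with the other complement genes). They are written 5′ to 3′ on the strand of the gene, with motif matches in capitals, and lie at chr1:130462695-130462994 (minus strand), chr2:104095551-104095850 (plus), chr6:124512371-124512670 (plus) and chrX:20931506-20931805 (minus).
Cd55: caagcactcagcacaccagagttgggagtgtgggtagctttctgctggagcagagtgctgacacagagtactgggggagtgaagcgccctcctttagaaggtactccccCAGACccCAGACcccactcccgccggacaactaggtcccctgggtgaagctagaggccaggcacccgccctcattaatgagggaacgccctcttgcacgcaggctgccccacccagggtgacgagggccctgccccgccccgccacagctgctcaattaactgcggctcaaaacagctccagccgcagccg
Cd59a: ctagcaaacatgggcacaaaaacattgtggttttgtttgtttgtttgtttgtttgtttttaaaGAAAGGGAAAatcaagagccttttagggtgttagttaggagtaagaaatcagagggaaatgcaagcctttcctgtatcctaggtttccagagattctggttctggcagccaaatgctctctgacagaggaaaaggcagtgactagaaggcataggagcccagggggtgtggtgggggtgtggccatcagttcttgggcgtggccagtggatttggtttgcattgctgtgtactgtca
C1ra: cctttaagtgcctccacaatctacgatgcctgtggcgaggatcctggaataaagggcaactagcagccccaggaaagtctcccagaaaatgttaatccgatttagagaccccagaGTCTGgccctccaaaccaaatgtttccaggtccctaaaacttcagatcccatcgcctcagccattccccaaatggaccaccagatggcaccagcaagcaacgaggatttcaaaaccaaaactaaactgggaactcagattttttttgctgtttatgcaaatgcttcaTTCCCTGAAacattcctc
Cfp: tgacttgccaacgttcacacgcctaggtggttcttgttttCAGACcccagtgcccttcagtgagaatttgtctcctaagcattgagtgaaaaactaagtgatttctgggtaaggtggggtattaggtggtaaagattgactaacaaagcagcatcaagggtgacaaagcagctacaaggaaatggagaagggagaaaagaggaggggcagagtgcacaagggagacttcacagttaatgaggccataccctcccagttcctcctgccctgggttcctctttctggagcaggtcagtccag
*Cd55* held the SMAD letters 2 times, *Cd59a* the IRF letters 1 time, *C1ra* the SMAD and the STAT letters 1 time each, and *Cfp* the SMAD letters 1 time. Both promoter entries of *C1s1* held none of the 4 motifs. A match is a description of the letters and not a binding site.

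The rest of the complement system was described from a list of 53 genes (initiators, lectin and alternative arms, terminal components, regulators, receptors and receptors of clusterin), of which 21 were analysed and 32 were not analysed here. The list was chosen with earlier results of these data known, so its shares are a description. Of the 21, 1 was altered upward and 4 downward, or 23.8%, where 5.77% of all genes were altered. At an adjusted p under 0.05, which 0.947% of all genes met, there were 2, both lower. The genotypes did not overlap in 6 of the 21, 5 lower and 1 higher in the mutants, where this held for 5.27% of all genes, 3.14% lower and 2.13% higher. The median difference of the list was -0.17.

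**Figure D4:**
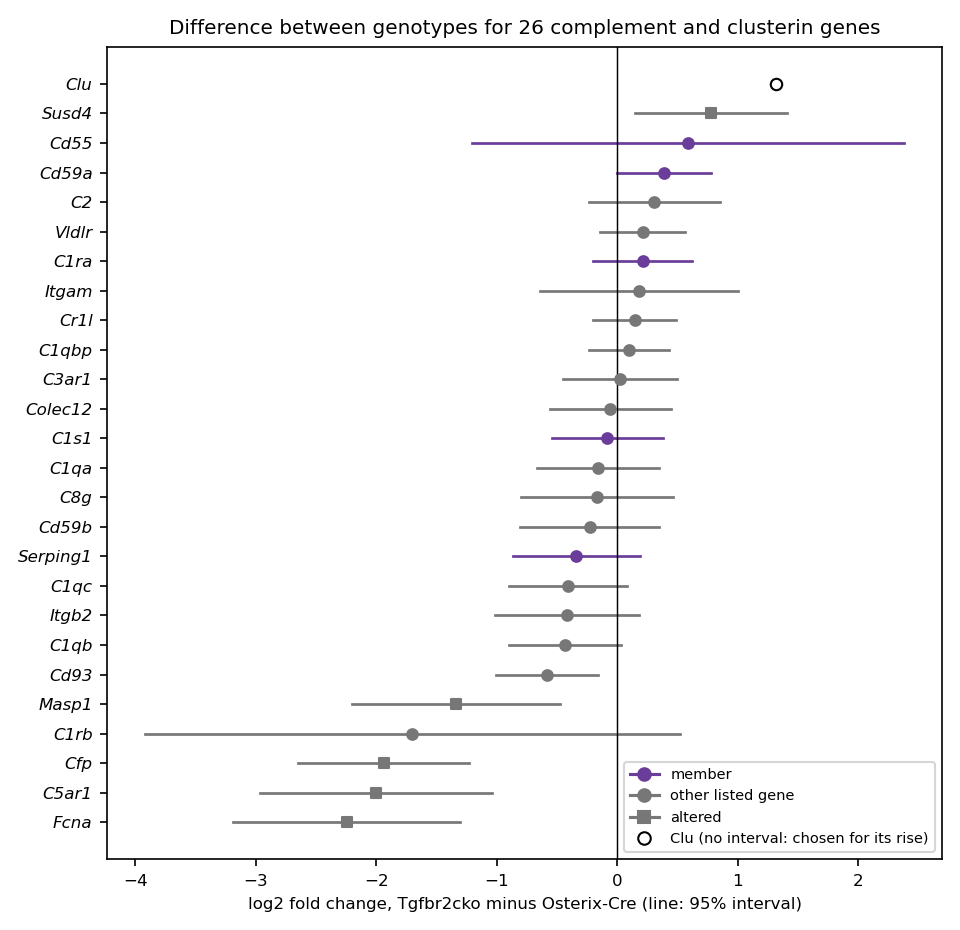
Log2 fold change (*Tgfbr2cko* minus Osterix-Cre) with its 95% interval for the 5 tested members (purple) and 20 of the 21 other complement genes (grey), sorted by size, with altered genes as squares; *Clu* is an open circle without an interval. The intervals of the 5 members include 0, those of *Cd55* and *C1rb* are the widest, and *Cfp*, *C5ar1* and *Fcna* lie farthest to the left.

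*Cfp* (ENSMUSG00000001128.7) encodes properdin, which stabilizes the C3-cleaving enzyme of the alternative arm. Controls 49 to 52 had log2 values of 5.49, 5.93, 6.16 and 5.24, and mutants 53 to 56 had 4.70, 4.06, 3.06 and 3.22. All mutants lay below all controls. It fell by 1.94 on the log2 scale (95% interval -2.65 to -1.23; limma-trend adjusted p = 0.0119), and without library 56 the difference was -1.76.

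*Fcna* (ENSMUSG00000026938.10) encodes ficolin A, a lectin that starts the lectin arm. The log2 values were 2.74, 4.56, 4.66 and 3.46 among controls, and 1.96, 2.32, 0.84 and 1.31 among mutants. The genotypes did not overlap, with 65 to 240 reads per control library and 15 to 61 per mutant library. It fell by 2.25 on the log2 scale (95% interval -3.19 to -1.30; limma-trend adjusted p = 0.0259), and 6.55% of its exon length is overlapped by exons of the antisense gene *Fcnaos*.

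*C5ar1* (ENSMUSG00000049130.6) encodes the receptor for the C5a fragment on myeloid cells. It stood at 4.36, 4.71, 4.72 and 3.81 among controls, and at 3.60, 3.12, 1.37 and 1.51 among mutants, again without overlap. The mutant level was 0.249-fold that of the controls (95% interval -2.97 to -1.04 on the log2 scale), an altered gene with a limma-trend p of 0.000614, while its adjusted p was 0.0592. *Masp1*, a protease of the lectin arm, was counted with 14 to 30 reads per control library and 6 to 13 per mutant library. Its difference was -1.34 (95% interval -2.21 to -0.48), where limma-trend gave a p of 0.00508, or 0.187 after adjustment.

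*Susd4* (ENSMUSG00000038576.15), a membrane regulator of complement, was the listed gene altered upward. Controls stood at 3.88, 3.73, 3.47 and 3.64 on the log2 scale, and mutants at 3.89, 3.89, 4.75 and 5.31. Libraries 53 and 54 were level with control 49, and the rise was carried by 55 and 56. The difference was 0.78 (95% interval 0.15 to 1.41), where limma-trend gave a p of 0.0197, or 0.381 after adjustment. Without library 56 it was 0.49 with a limma-trend p of 0.0601. The call was also lost without library 51, at 0.71, without library 55, at 0.68, and with *Amelx*, *Ambn* and *Enam* in the model, at 0.44. *Cd93*, a surface receptor once described as a receptor for C1q, was chosen after its values were seen because its groups did not overlap. It ranged from 5.42 to 5.92 among controls and from 4.59 to 5.36 among mutants, a difference of -0.58 that was just short of 1.5-fold, where limma-trend gave a p of 0.0101, or 0.268 after adjustment. It was altered in 8 of 17 alternatives, among them without library 56, at -0.69, and over all 17 the difference ran from -0.72 to -0.43.

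**Figure D5:**
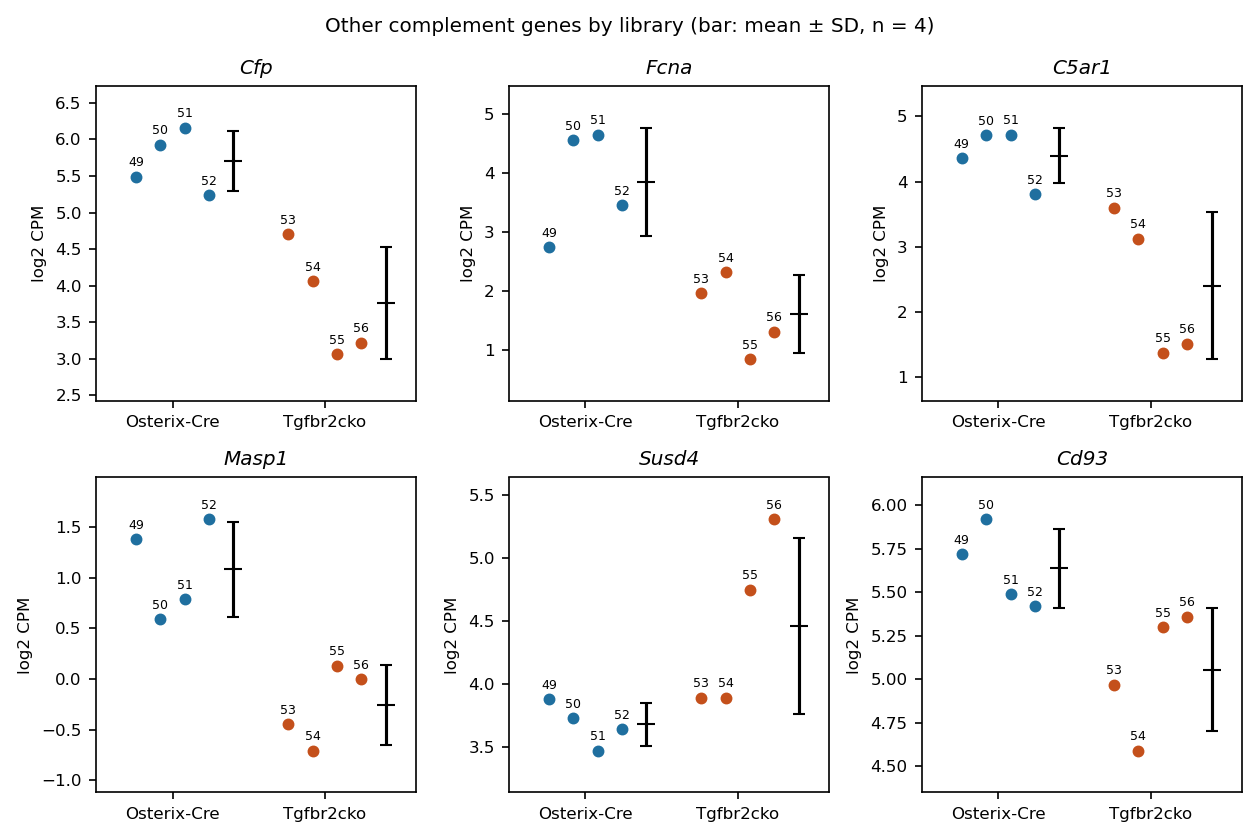
Log2 CPM of 6 complement genes in each library (points, labelled with the library number), with the mean ± SD of each genotype (n = 4); each panel has its own axis. *Cfp*, *Fcna*, *C5ar1*, *Masp1* and *Cd93* are lower in all mutants than in all controls, and *Susd4* is separated from the controls mainly in libraries 55 and 56.

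Of the 5 genes of the list with the highest mean log2 values, 4 were *Colec12*, *C1qb*, *C1qc* and *Vldlr*. Of these 4, 0 were altered, where 5.77% of all genes were. An unadjusted limma-trend p under 0.05 was found for 0 of the 4 and for 8.38% of all genes. *Colec12*, a scavenger receptor with a lectin domain, differed by -0.06 (95% interval -0.56 to 0.44). The C1q chains *C1qb* and *C1qc* differed by -0.43 (95% interval -0.90 to 0.03) and -0.41 (95% interval -0.90 to 0.08). Without library 56 they were -0.25 and -0.21, and without control 52 *C1qb* was altered, at -0.59. The limma-trend p fell under 0.05 in 5 of 17 alternatives for *C1qb* and in 4 of 17 for *C1qc*, with lowest values of 0.0163 and 0.0246. In library 56 both had their lowest values of the 8, 7.07 and 6.57. *Vldlr*, a receptor of the LDL receptor family that binds clusterin, differed by 0.21 (95% interval -0.14 to 0.56).

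Some markers of macrophages, pericytes and endothelium fell, where 3.65% of all genes were altered downward. Of the 9 macrophage genes, all analysed, 8 had a lower mean in the mutants, 4 were altered downward (*Cd68*, *Lyz2*, *Ptprc* and *Mrc1*) and 0 upward, with a median difference of -0.58. Their summed level ranged from 992 to 1240 CPM among controls and stood at 1000, 811, 687 and 420 CPM in mutants 53 to 56. *Lyz2* fell by 1.19 on the log2 scale (limma-trend adjusted p = 0.028), whereas *Csf1r* differed by -0.27 and *Cx3cr1* by 0.26 (limma-trend p of 0.237 and 0.306). In library 53 *Cfp* and *C5ar1* were lower than in every control, and so were *Lyz2* and *Ptprc*, while its macrophage sum lay within the control range. Of the 5 pericyte and smooth muscle genes analysed of 6 listed, 4 were below 0 and 2 altered downward (*Rgs5* and *Pdgfrb*), with a median difference of -0.54 and sums of 405 to 539 CPM in controls against 293 to 380 CPM in mutants. All 6 endothelial genes were below 0 and 1, *Tek*, was altered, with a median of -0.295 and sums of 237 to 336 CPM against 209 to 278 CPM. The part of any of these cell types in the complement results was not tested.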

How the data were processed

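Total RNA of dental pulp was amplified from a low input and sequenced, 4 libraries per genotype. Per the labels, the authors used fastp 0.21.0, HISAT2 2.1.0 and featureCounts (Subread 2.0.1) on GRCm38.p5; the methods write GRCh38 and name GENCODE M14. They kept genes passing the CLEAR workflow and deposited voom log2 values, log2 of the count plus 0.5, scaled to 1000000 counted reads. All 97184 values turned back into whole reads (largest distance 1.42e-05), between 8682872 and 13539670 per library. Amplified reads without molecular identifiers are not independent molecules.

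Symbols, coordinates and exon lengths came from GENCODE M21 (GRCm38), which matched 12144 of 12148 identifiers. Genotypes were compared on the deposited log2 values in R 4.3.3 with limma 3.58.1 (two-sided moderated test with intensity trend, Benjamini-Hochberg over all genes), and the fit was tested on simulated data. For single genes an exact permutation test (two-sided, 70 arrangements) was added. By rule, the genes named are the 8 members, *Tgfbr2*, the altered genes of the complement list and its 5 genes with the highest mean log2 values, paralogs of members, the 5 profiles nearest to *Clu*, and marker genes beside a result. Some genes that this rule names are not reported here, though counts over lists include them. Members and lists were chosen with earlier results of these data known. Alternatives were quantile normalization, median centring, 2 added to each count, a mean log2 value of at least 3, no trend, library weights, voom weights, averaging by title number, an enamel covariate and each library left out. Figures used Python 3.11.15 and matplotlib 3.10.9.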

Additional observations from a re-analysis of the deposited data

How the results depend on the processing

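Of the 21 other complement genes analysed, 5 were altered; 3 were left at a mean log2 value of at least 3, where fewer genes were tested, and 2 at an adjusted p under 0.05. The other 16 alternatives gave 5 to 7, and without library 56 there were 6, all lower. Of all 12148 genes 701 were altered, and 625 (without library 50) to 947 (without library 53) in alternatives that kept all genes. Without library 56 this number was 644, of which 341 were lower. At a mean log2 value of at least 3 it was 510 of 10313. The count of altered members other than *Clu* was 0 in all 18 alternatives. The *Clu* difference ran from 0.81 to 1.56. Of all genes, 115 had an adjusted p under 0.05, but 65 without library 51, 70 without 52, 72 without 55 and 258 with library weights, so the share given for all genes moves with these choices. Some directions reversed. With the enamel covariate *Cd55* was -0.53, *C1qa* 0.062, *Colec12* 0.20 and *C8g* 0.083. With library weights *Colec12* was 0.032; with title numbers averaged *C3ar1* was -0.0073; with voom weights *C3ar1* was -0.017. With each library left out, *C1s1* ran from -0.21 to 0.0593, *Cd55* from -0.43 to 1.26, *C1qa* from -0.34 to 0.0295, *Colec12* from -0.19 to 0.16, *C8g* from -0.41 to 0.0393, *C3ar1* from -0.15 to 0.22, *Itgam* from -0.0762 to 0.40 and *C1qbp* from -0.0383 to 0.16; the cause was not tested. No paired analysis was possible because the genotypes share 1 title number, 2, so that only libraries 51, 54 and 55 would bear on the contrast. With 4 libraries per genotype, the width of the intervals limits what could be detected: for *Cd55* a 2-fold change in either direction lay inside it.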

Other observations

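Without library 56, the genes with the profile nearest to *Clu* over the other 7 libraries were *Rgcc*, *Srd5a1*, *Cnksr2* and *Anxa4*, 4 of the 5 nearest, at root mean square differences of 0.140 to 0.155 on the log2 scale. *Dsp*, *Tmem108*, *Itgb4* and *Entpd3* were not among the 5 nearest here. *Rgcc*, once named as a response gene to complement, stood at 4.66, 4.13, 4.44 and 4.36 among controls, and at 5.04, 4.87, 5.34 and 4.79 among mutants. Library 56 was the lowest mutant for *Rgcc* and the highest for *Clu*. *Srd5a1*, a steroid reductase, ranged from 5.12 to 5.15 among controls and stood at 5.57, 5.84, 6.06 and 6.27 among mutants, so its controls were more tightly grouped than those of *Clu* and its mutants varied less. These genes were picked for their profile, so their separation by genotype is a description.

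*C2*, the component cleaved by C1s, was chosen after its values were seen. Controls had 5.99, 6.24, 5.95 and 5.56 on the log2 scale, and mutants had 6.66, 6.27, 6.62 and 5.41, so that 3 mutants lay above all controls and library 56 below them. The difference was 0.31 with all libraries with a limma-trend p of 0.244. Without library 56 it was 0.58, still under 1.5-fold, with a limma-trend p of 0.00542. *C2* was picked with the place of library 56 known, so this last p is only a description. Exons of *Gm20547* share 42.8% of the exon length of *C2* on the same strand.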
